A study of Mus musculus with 4 samples.

Results

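The Ifit genes code for interferon-induced proteins with tetratricopeptide repeats. In this series they are 6 genes, Ifit1, Ifit2, Ifit3, Ifit3b, Ifit1bl1 and Ifit1bl2, taken by symbol from the 21878 genes of the mRNA values, with all of their 15 transcripts summed per gene. Added to them were the 3 circRNAs, of 4295 listed, whose host gene is one of the 6. All 3 have Ifit3 as host. The cells were C3H10T1/2, a line of mouse mesenchymal stem cells. The drug 5-AZA (5-azacytidine) is built into DNA and RNA in place of cytidine and causes loss of DNA methylation. RNA without ribosomal RNA was sequenced from untreated cells (2 samples, replicates 1 and 2) and from cells that had received 5-AZA at 20 μM (2 samples, replicates 101 and 102). The treated cells were exposed for 72 hours and then kept for 21 days in fresh medium. The labels give no time in culture for untreated cells, so treatment and time in culture cannot be told apart. The study calls the replicates biological repeats, but no label says that they came from separate cultures, so p-values measure the spread between these samples, which may be technical.

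Ifit genes are almost silent in resting cells and are among the first genes switched on by type I interferon. Binding of interferon to its receptor activates the kinases Jak1 and Tyk2, and a complex that contains Stat2 and Irf9 then binds a DNA element, the interferon-stimulated response element (ISRE), in the promoters of these genes. The proteins bind viral RNA or other Ifit proteins. Ifit1 recognises foreign RNA by its cap and blocks its translation, Ifit2 binds AU-rich RNA, and Ifit3 works as a partner of other Ifit proteins. Ifit3b is a near-identical copy of Ifit3, and Ifit1bl1 and Ifit1bl2 are relatives of Ifit1.

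The 6 genes lie side by side on chromosome 19 of the mouse genome (GRCm38.p6, RefSeq). Ifit2 (34550550 to 34576534), Ifit3 (34583119 to 34588982), Ifit3b (34607530 to 34613403) and Ifit1 (34640889 to 34650009) are read from the plus strand. Ifit1bl2 (34617046 to 34640827) and Ifit1bl1 (34592888 to 34662981) are read from the minus strand, and the span of Ifit1bl1 covers Ifit3b, Ifit1bl2 and Ifit1. The sequences below are the 250 bases before a RefSeq start site of Ifit1 (34640889), Ifit3 (34583529) and Ifit3b (34607957), read from 5′ to 3′ on the plus strand. These are the 3 members with the highest levels among those called higher after 5-AZA. For Ifit3 and Ifit3b the stretch lies inside the gene span given above, so it is upstream of that start site but not of the whole gene. Listed Ifit3 transcripts start at 34583142 and 34583407. Capital letters can thus lie within a listed transcript. Capitals mark the core of the ISRE, searched on both strands as TTTC, any 2 bases and TTTC again. They lie at chr19:34640639-34640888 for Ifit1, chr19:34583279-34583528 for Ifit3 and chr19:34607707-34607956 for Ifit3b.
Ifit1: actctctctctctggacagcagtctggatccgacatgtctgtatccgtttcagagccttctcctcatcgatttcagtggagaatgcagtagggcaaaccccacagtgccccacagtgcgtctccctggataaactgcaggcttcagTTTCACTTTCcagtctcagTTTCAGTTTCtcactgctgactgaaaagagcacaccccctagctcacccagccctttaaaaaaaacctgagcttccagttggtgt
Ifit3: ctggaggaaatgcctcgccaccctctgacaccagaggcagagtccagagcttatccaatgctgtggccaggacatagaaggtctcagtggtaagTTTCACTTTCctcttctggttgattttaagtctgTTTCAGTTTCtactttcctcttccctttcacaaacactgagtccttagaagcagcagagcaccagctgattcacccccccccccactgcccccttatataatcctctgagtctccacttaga
Ifit3b: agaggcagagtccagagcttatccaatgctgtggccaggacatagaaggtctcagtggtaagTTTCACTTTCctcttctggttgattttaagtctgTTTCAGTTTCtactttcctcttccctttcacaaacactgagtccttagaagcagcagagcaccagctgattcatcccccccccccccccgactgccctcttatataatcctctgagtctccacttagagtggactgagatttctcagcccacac

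Each of these stretches held 2 ISRE cores, spelled TTTCACTTTC and TTTCAGTTTC and in this order. In Ifit1 they began 104 and 85 bases before the start site used here, in Ifit3 156 and 122 bases, and in Ifit3b 188 and 154 bases. RefSeq windows of 300 bases, from 250 before to 50 after a start site, were on hand for all 6 members, 9 windows in all. They do not cover every start of a gene. The windows of Ifit1bl1 belong to start sites at 34599427 and 34601968, while its span reaches 34662981. The core was present in 6 of these 9 windows and in 5 of the 6 genes, against 3.44% of 32851 mouse windows of the same length. It was in neither of the 2 windows of Ifit2, and each window of Ifit1bl1 held 1 core (TTTCATTTTC). These are matches of letters, and binding at them was not measured. The 6 windows with a core are not separate cases to set against the share over all windows. Those of Ifit1 and Ifit1bl2 overlap, and those of Ifit3 and Ifit3b are near copies. The 2 windows of Ifit1bl1 were identical at 194 of 219 aligned bases (88.6%), without gapped positions.

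Ifit1 and Ifit1bl2 start back to back. One start site of Ifit1bl2 (34640743) lies 146 bases from that of Ifit1 on the opposite strand, and their windows share 245 bases. The 2 ISRE cores found for Ifit1bl2 are the same bases as those of Ifit1. The windows of Ifit3 and Ifit3b were identical at 258 of 260 aligned bases (99.2%), with positions that had a gap in either window left out. CpG dinucleotides are the sites where DNA methylation sits. The window of Ifit1 held 4, those of Ifit3 and Ifit3b 1 each, both of Ifit1bl2 2 each and both of Ifit1bl1 0. The median over all windows was 7, and 38.0% of all windows held 4 or fewer. Ifit2 had 10 and 11. DNA methylation was not measured in these samples.

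Ifit1, Ifit3, Ifit3b and, at a much lower level, Ifit1bl1 rose after 5-AZA, and Ifit2 did not pass the test. Ifit1bl2 was also called higher, but it entered the test only because of its 5-AZA samples. The level is given as FPKM, fragments scaled to the transcript length in kilobases and to the sequenced fragments, so genes can be compared with each other. The test was limma on log2(FPKM + 0.1) over 13199 genes with a mean of at least 0.1 FPKM. A gene was called at an adjusted p-value (Benjamini-Hochberg) below 0.05 and a change over 2-fold. Over all genes tested 13.1% were called higher (1724 genes) and 1.32% lower, and the median log2 fold change was 0.05. After quantile normalization 1041 genes were called higher and 886 lower, so the share of rises among all calls depended on the scaling. Of the 6 members 5 were called higher and 0 lower. A gene with an untreated mean under 0.1 FPKM enters the test only through its 5-AZA samples, which fixes its direction. This held for 1069 genes, 825 of them called higher, and for 1 member, Ifit1bl2. Of the other 12130 genes 7.41% were called higher, and of the other 5 members 4 were. In bulk RNA, more cells that express a gene and more of its RNA per cell cannot be told apart.

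Ifit1 had the largest fold change. It was listed at 2.22 and 1.56 FPKM in untreated replicates 1 and 2 and at 67.2 and 59.3 FPKM in 5-AZA replicates 101 and 102. The lower 5-AZA value was far above the higher untreated one. Means were 1.89 ± 0.463 and 63.2 ± 5.60 FPKM (SD, n = 2 in each group), and Ifit1 rose by 5.01 ± 0.17 on the log2 scale (± standard error, adjusted p by limma 4.44e-07). Of all genes, 57.3% and 55.2% had a lower level than Ifit1 in the untreated samples, and 96.5% and 95.4% in the 5-AZA samples.

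Ifit3 was the most abundant member after 5-AZA. Its values were 7.85 and 7.18 FPKM in the untreated and 92.4 and 75.1 FPKM in the 5-AZA samples, without overlap. The rise was 3.45 ± 0.13 in log2 units (adjusted p by limma 6.69e-07). Ifit3b, its near-identical copy, had 4.24 and 3.83 FPKM untreated and 27.5 and 24.5 FPKM after 5-AZA, again without overlap. Ifit3b rose by 2.66 ± 0.13 log2 units (adjusted p by limma 3.04e-06). Ifit3 exceeded Ifit3b 1.85 and 1.87 times in the untreated samples and 3.36 and 3.07 times in the 5-AZA samples. Reads that fit both genes can be divided between them by the authors' quantification, so this ratio is uncertain. Their sum depends less on that division, though not fully independent of it, since FPKM is scaled to transcript length. It was 12.1 and 11.01 FPKM untreated and 119.8 and 99.5 FPKM after 5-AZA. The sum rose by 3.23 log2 units (adjusted p by limma 7.05e-07).

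Ifit2 was the most abundant member in the untreated cells and hardly differed between the groups. It was listed at 9.30 and 7.87 FPKM untreated and at 11.6 and 9.73 FPKM after 5-AZA. The 5-AZA values lay just above the untreated ones, as they did for 36.8% of all genes tested. The log2 fold change was 0.31, with a 95% confidence interval from -0.03 to 0.65 (adjusted p = 0.182, limma), so that a rise over 2-fold lies outside the interval. Ifit3 was 0.844 and 0.912 times Ifit2 in the untreated samples and 7.97 and 7.72 times Ifit2 in the 5-AZA samples. The groups did not overlap in this ratio, which was not tested.

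Ifit1bl1 and Ifit1bl2 stayed near 1 FPKM or below in every sample. Ifit1bl1 had 0.133 and 0.208 FPKM untreated and 1.21 and 0.885 FPKM after 5-AZA, a rise of 2.08 ± 0.33 log2 units (adjusted p by limma 0.00185). Ifit1bl2 had 0.134 and 0.0171 FPKM untreated and 0.753 and 0.329 FPKM after 5-AZA, a rise of 1.87 ± 0.49 log2 units (adjusted p by limma 0.0233). The groups did not overlap in either gene. Ifit1bl2 passed the limit on low values only through its 5-AZA samples, with an untreated mean of 0.0757 FPKM, so its rise is no independent result. Neither call held with only 1 of the 5-AZA samples, where fewer genes were called over all genes too. Without 5-AZA replicate 101 the log2 fold changes were 1.88 and 1.37, and without replicate 102 they were 2.29 and 2.37, and neither gene was called. Ifit1bl2 was not called without untreated replicate 2 either (1.37). Their reads can also be shared with Ifit1 and with each other. The sum of Ifit1, Ifit1bl1 and Ifit1bl2 rose by 4.88 log2 units (adjusted p by limma 4.41e-07).

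**Figure D1:**
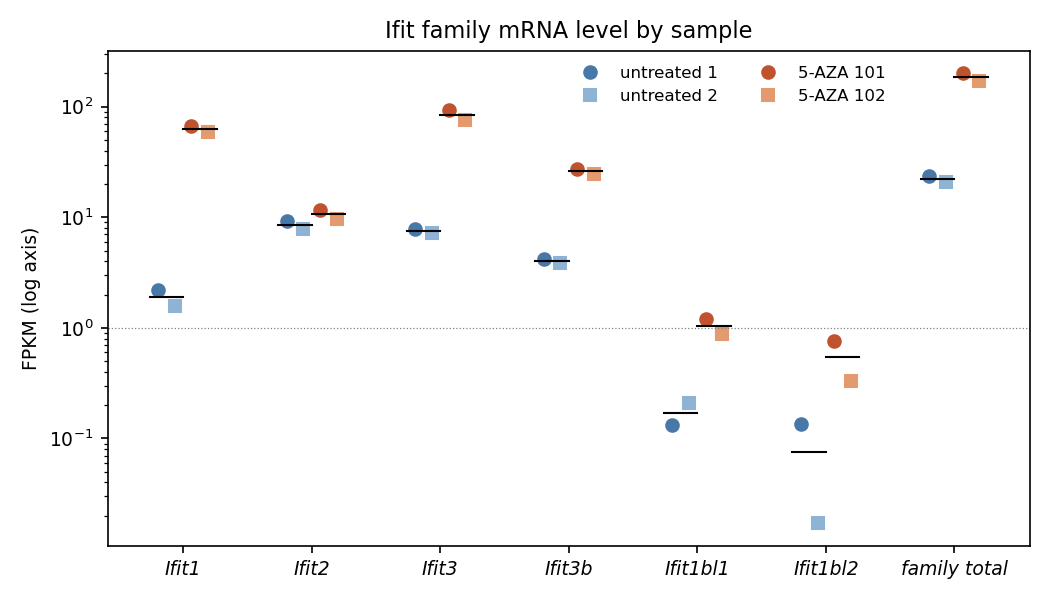
FPKM (log axis) of the 6 Ifit genes and of their sum in each sample, with blue shades for untreated, red and orange for 5-AZA and black bars for the group means (n = 2). The 5-AZA samples lie above the untreated samples in every column, by a wide gap for Ifit1, Ifit3 and Ifit3b and by a narrow one for Ifit2 (9.73 against 9.30 FPKM). The dotted line is at 1 FPKM.

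The order of the members changed. In the untreated samples it was Ifit2, Ifit3, Ifit3b, Ifit1, Ifit1bl1 and Ifit1bl2. The ranges of Ifit2 and Ifit3 nearly touched there (7.87 against 7.85 FPKM), and those of Ifit1bl1 and Ifit1bl2 overlapped. In the 5-AZA samples the order was Ifit3, Ifit1, Ifit3b, Ifit2, Ifit1bl1 and Ifit1bl2, and no ranges of neighbours overlapped. The 6 genes together had 23.9 and 20.7 FPKM untreated and 200.6 and 169.8 FPKM after 5-AZA, which is 8.32 times the untreated mean. An exact permutation test of this total gave p = 0.333, the smallest it can give (two-sided).

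The make-up of this total was alike within each group. Ifit2 held 38.97% and 38.1% of it in the untreated samples and 5.78% and 5.73% in the 5-AZA samples. The share of Ifit1 went from 9.29% and 7.55% to 33.5% and 34.9%. Ifit3 made up 32.9% and 34.7% untreated and 46.1% and 44.2% after 5-AZA, and Ifit3b 17.8% and 18.6% against 13.7% and 14.4%. Ifit1bl1 and Ifit1bl2 stayed at or near 1% or below.

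**Figure D2:**
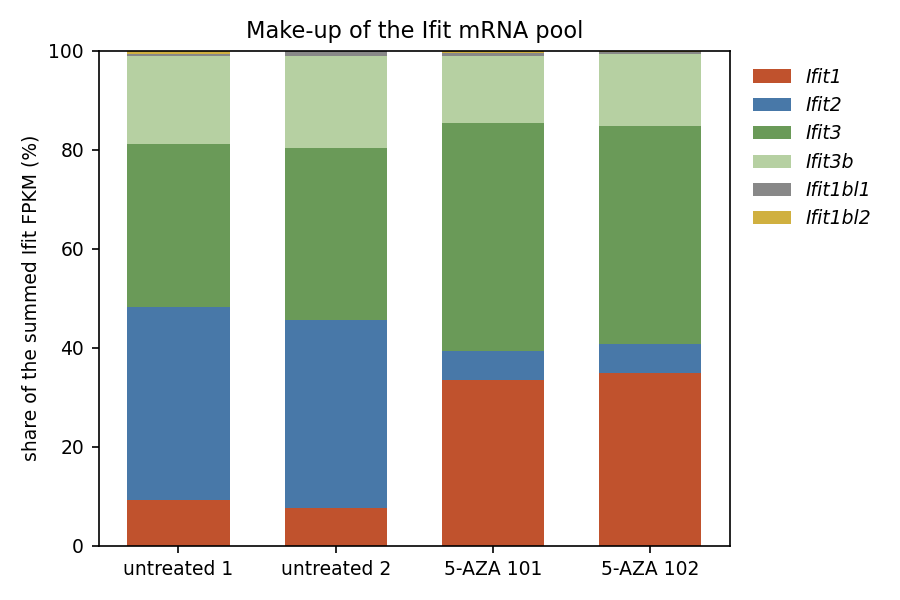
Share in percent of the summed Ifit FPKM held by each gene, with 1 stacked bar per sample. Ifit2 (blue) takes 38.1% to 38.97% of the untreated bars and under 6% of the 5-AZA bars, where Ifit1 (red) takes 33.5% and 34.9%.

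Single transcripts showed the curated RefSeq forms carrying most of the rise, as the authors' quantification divided the reads. Reads that fit several transcripts of a gene can be divided between them, so these levels are uncertain. NM_010501.2 held 76.8% of Ifit3 in untreated replicate 1 and 51.3% in replicate 2. Over 35557 transcripts tested, 2.1% were called higher and 2.36% in either direction. Of the 15 Ifit transcripts 14 were tested and 5 were called higher, those being NM_008331.3 of Ifit1, NM_010501.2, XM_011247151.2 and XM_011247152.2 of Ifit3, and NM_001005858.3 of Ifit3b. NM_010501.2 had 6.02 and 3.68 FPKM untreated and 82.5 and 64.8 FPKM after 5-AZA, a rise of 3.93 log2 units (adjusted p by limma 0.00399). XM_011247152.2 was listed near 0 in both untreated samples and at 1.84 and 2.31 FPKM after 5-AZA, and it entered the test only through its 5-AZA samples. So did 4 transcripts of Ifit1bl1 and Ifit1bl2 that were not called, and 4 of the other 9 were called higher. XM_011247153.1 had 1.51 and 3.00 FPKM against 4.30 and 5.32 FPKM and was not called (log2 fold change 1.13, adjusted p = 0.242, limma).

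NM_001005858.3 of Ifit3b had 3.24 and 2.77 FPKM untreated and 25.4 and 23.8 FPKM after 5-AZA (log2 fold change 3.00, adjusted p = 0.00263, limma). The other transcript of Ifit3b, XM_006527264.3, overlapped between the groups, with 0.993 and 1.07 FPKM against 2.02 and 0.661 FPKM. For Ifit2, NM_008332.3 held most of the level (6.70 and 6.49 FPKM untreated, 9.33 and 7.67 FPKM after 5-AZA) and was not called (adjusted p = 0.434, limma). The transcripts of Ifit1bl1 traded places between replicates. NM_001110517.1 was at 0.962 FPKM in 5-AZA replicate 101 and at 0.0991 FPKM in 102, while XM_006527265.3 was at 0.192 and 0.594 FPKM. These calls by transcript rested on all 4 samples. Fewer were made with any of the samples left out, and the share called over all transcripts in those fits is not given here.

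The circRNAs of Ifit3 were few and had more reads after 5-AZA, but none passed the test. A circRNA is a closed loop of RNA that is recognised by reads across a back-spliced junction, and its level is given as RPM, junction reads scaled to the number of reads in the library. The values are whole multiples of the RPM of 1 read, 0.0106 to 0.0108, and a circRNA listed at 0 had fewer than 2 reads. circRNA_2222 had 5 reads in untreated replicate 1, was listed at 0 in replicate 2, and had 21 and 23 reads in 5-AZA replicates 101 and 102, or 0.0538, 0, 0.226 and 0.245 RPM. Both 5-AZA values lay above both untreated values. Its log2 fold change was 2.68 (95% confidence interval 0.35 to 5.01, unadjusted p = 0.0347, adjusted p = 0.213, limma), on a scale with 0.0213 RPM added. Of 1360 circRNAs tested, 0% were called and 251 had an unadjusted p-value below 0.05. circRNA_2220 had 3 reads in 5-AZA replicate 102 and circRNA_2221 had 3 reads in replicate 101. Both were listed at 0 elsewhere and were not tested.

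The 3 circRNAs begin in the gene span of Ifit3 and end in that of Ifit3b. circRNA_2222 is listed from 34587061 to 34607998 on the plus strand of chromosome 19, circRNA_2221 from 34587061 to 34607763 and circRNA_2220 from 34586274 to 34607998. The listed starts lie within the span of Ifit3, and the listed ends lie within the spans of Ifit3b and Ifit1bl1, beyond the end of Ifit3. The end at 34607998 lies after the Ifit3b start site used above (34607957). The end of circRNA_2221 lies before that start site, inside the upstream stretch of Ifit3b printed above and before its first ISRE core (34607769). Only 71 of 4047 circRNAs with a host gene in the RefSeq table (1.75%) had an end outside the span of their host. The 3 carry the type antisense, which 1.28% of all circRNAs carry, and none has a circBase identifier. For circRNA_2222 and circRNA_2221 the listed length equals the whole genomic distance (20938 and 20703 bases), which holds for 12.04% of all circRNAs.

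The sequence at the listed ends is shown here to compare the 2 genes. It is the Ifit3b sequence from RefSeq, with 22 bases up to and including the listed end in lower case and the next 8 bases in capitals.
End of circRNA_2222 and circRNA_2220: agaaacagatcaccatcatgagGTCAGTGC
End of circRNA_2221: caggacatagaaggtctcagtgGTAAGTTT
In both, the bases after the listed end begin with GT, the bases with which most introns start. The 57 bases up to the end of circRNA_2221 and the 8 bases after it are found unchanged in the window of Ifit3. Before the end of circRNA_2222 and circRNA_2220, the longest run found in that window was 46 bases, and it stopped 52 bases before the end. The window of Ifit3 ends before the position that matches this end, so the bases there were not compared. The mRNA of Ifit3 rose in the same samples, and its part in the junction reads was not tested. Summed over the 3 circRNAs there were 0.685 and 0 RPM per 100 FPKM of Ifit3 mRNA in the untreated samples and 0.280 and 0.369 RPM in the 5-AZA samples, so the ratio overlapped between the groups.

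**Figure D3:**
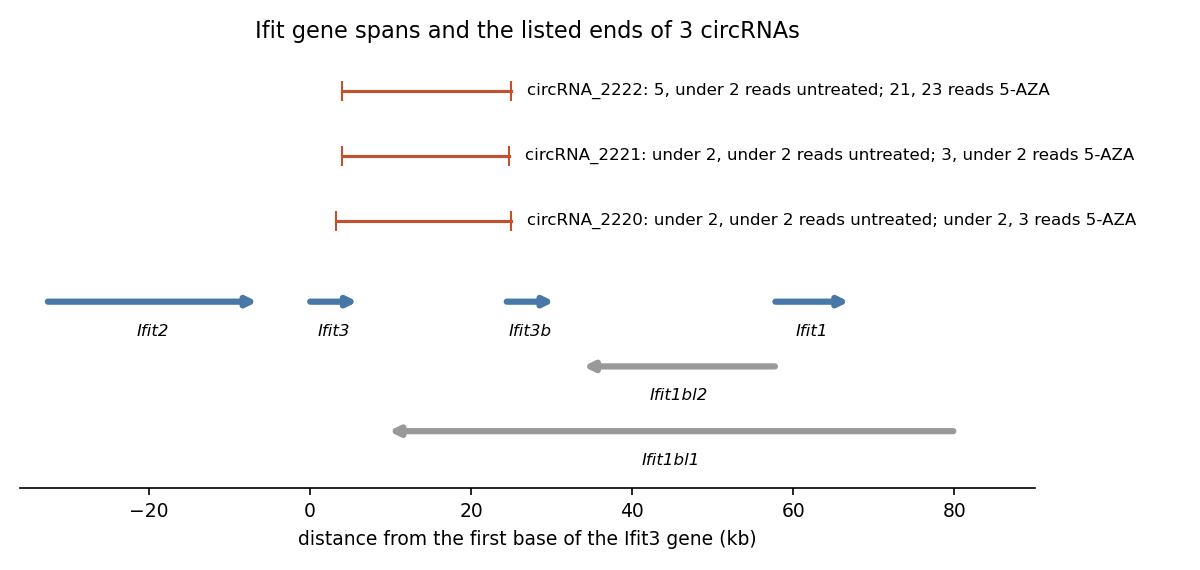
Spans of the 6 Ifit genes as arrows in the direction of reading (blue plus strand, grey minus strand) and the listed ends of the 3 circRNAs as red lines, against the distance in kb from the first base of Ifit3. Each red line starts in Ifit3 and ends in Ifit3b, and circRNA_2222 has 21 and 23 reads after 5-AZA against 5 and under 2 untreated.

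Noncoding transcripts of the locus stayed low. Within 100 kb of the circRNAs 10 lncRNAs were listed, none reached 1 FPKM in any sample, 2 were tested and 0 were called (limma, with 0 at an unadjusted p-value below 0.05), against 1.14% called over all lncRNAs. NONMMUT105439.1, inside the span of Ifit2, had 0.584 and 0.2 FPKM untreated and 0.385 and 0 FPKM after 5-AZA. Among 5 genes beside the cluster 4 were tested and 1 was called higher, against 13.1% of all genes tested. Ch25h, an interferon-inducible gene whose enzyme makes an antiviral oxysterol, had 0.168 and 0.0956 FPKM untreated and 2.37 and 3.04 FPKM after 5-AZA. Without 5-AZA replicate 102 it was not called. Lipa, the lysosomal acid lipase next to Ifit2, had 49.8 and 46.9 FPKM against 50.5 and 55.5 FPKM. The median log2 fold change of the 4 neighbours tested was -0.07.

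Interferon genes themselves were hardly seen. Of 21 interferon genes 14 were listed at 0 in all 4 samples, Ifnb1 among them, and 19 were below 0.1 FPKM in every sample. Ifng was listed at 0 in both untreated samples and at 0.188 and 0.0778 FPKM after 5-AZA, and Ifne at 0.148 and 0 against 0 and 0.226 FPKM. The receptor chain Ifnar1 had 12.1 and 12.3 FPKM untreated and 11.3 and 13.2 FPKM after 5-AZA. Ifnar2 had 20.1 and 17.5 FPKM against 28.6 and 31.5 FPKM, a log2 fold change of 0.68 that stayed under 2-fold (adjusted p = 0.00321, limma). The kinases Jak1 and Tyk2 were not called, with log2 fold changes of 0.01 and -0.21. The receptors of interferon gamma, Ifngr1 and Ifngr2, were not called either (0.32 and 0.07).

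Stat2 and Irf9, of the complex that binds the ISRE, both rose. Stat2 had 4.90 and 4.91 FPKM untreated and 16.1 and 17.9 FPKM after 5-AZA, a rise of 1.77 log2 units (adjusted p by limma 2.32e-05). Irf9 had 7.72 and 6.67 FPKM against 26.4 and 26.8 FPKM, a rise of 1.87 log2 units (adjusted p by limma 1.21e-05). In both genes the groups were far apart. All 16 receptor and signalling genes tested had an untreated mean of at least 0.1 FPKM, where 7.41% of genes were called higher. Over all genes tested the shares were 13.1% higher and 1.32% lower. Of these 16 genes 5 were called higher, none was called lower, and the median log2 fold change was 0.69. Among those called were also Irf7, a transcription factor that amplifies the interferon response (0.593 and 0.735 FPKM against 9.84 and 9.38 FPKM), and Usp18, which damps receptor signalling (0.511 and 0.359 FPKM against 12.7 and 12.98 FPKM).

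Sensors of foreign nucleic acid were split. Of 11 tested 6 were called higher and none lower, against 13.1% and 1.32% of all genes tested. Their list had a median of 1.03 log2 units. Those called were Ddx58 and Ifih1, which detect double-stranded RNA, their relative Dhx58, the nucleic acid sensor Zbp1, the kinase Eif2ak2 and the adaptor Tmem173. Ifih1 was listed at 0 in both untreated samples and at 1.58 and 1.75 FPKM after 5-AZA, so it entered the test only through its 5-AZA samples. Of the other 10 sensors 5 were called higher, with a median of 0.60, against 7.41% of all genes with an untreated mean of at least 0.1 FPKM. The adaptor Mavs and the kinase Tbk1 were not called (log2 fold changes -0.05 and -0.01). Fewer sensors were called without 5-AZA replicate 101 or 102, and fewer genes over all genes tested as well. After quantile normalization the median of the sensors was 0.18, against -0.12 over all genes tested.

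Other interferon-stimulated genes moved in the direction of Ifit1 and Ifit3. Of 32 tested from a list of 36, 29 were called higher and none lower, against 13.1% and 1.32% of all genes tested. The median log2 fold change of the list was 3.37, against 0.05 over all genes. Of these, Oas1a, Oas2, Oas3 and Oasl1 entered the test only through their 5-AZA samples. The other 28 had 25 calls, all higher, and their median was 3.17. Of all genes with an untreated mean of at least 0.1 FPKM, 7.41% were called higher. Without 5-AZA replicate 101 or 102 the median of the list was 3.33 and 3.19. Fewer of the list were then called, and fewer over all genes as well. Those called were Isg15, Isg20, the RNA-sensing Oas1a, Oas2, Oas3, Oasl1 and Oasl2, Bst2, Ifi44, Ifi27, Ifi35, Ifi202b, Ifi204, Herc6, Rtp4, Xaf1, Parp14, Trim30a, the GTPases Gbp2, Gbp3, Gbp6, Gbp7, Igtp, Irgm1, Irgm2 and Iigp1, the proteasome subunit Psmb8, and the membrane proteins Ifitm1 and Ifitm3. Isg15, a ubiquitin-like protein, had 2.08 and 1.34 FPKM untreated and 55.8 and 54.1 FPKM after 5-AZA, a log2 fold change of 4.96. Bst2, which tethers budding virus to the cell surface, had 5.68 and 4.61 FPKM against 76.7 and 76.5 FPKM. The largest log2 fold change of the list was that of Oas1a (5.60), whose untreated mean was 0.0828 FPKM, and the highest levels were those of B2m, Ifi27 and Ifitm3. B2m (0.55), Psmb9 (0.71) and Tap1 (0.88), which serve antigen presentation, stayed under 2-fold. Rsad2 stayed below 0.23 FPKM and Cmpk2 below 0.1 FPKM in every sample, and neither was tested.

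**Figure D4:**
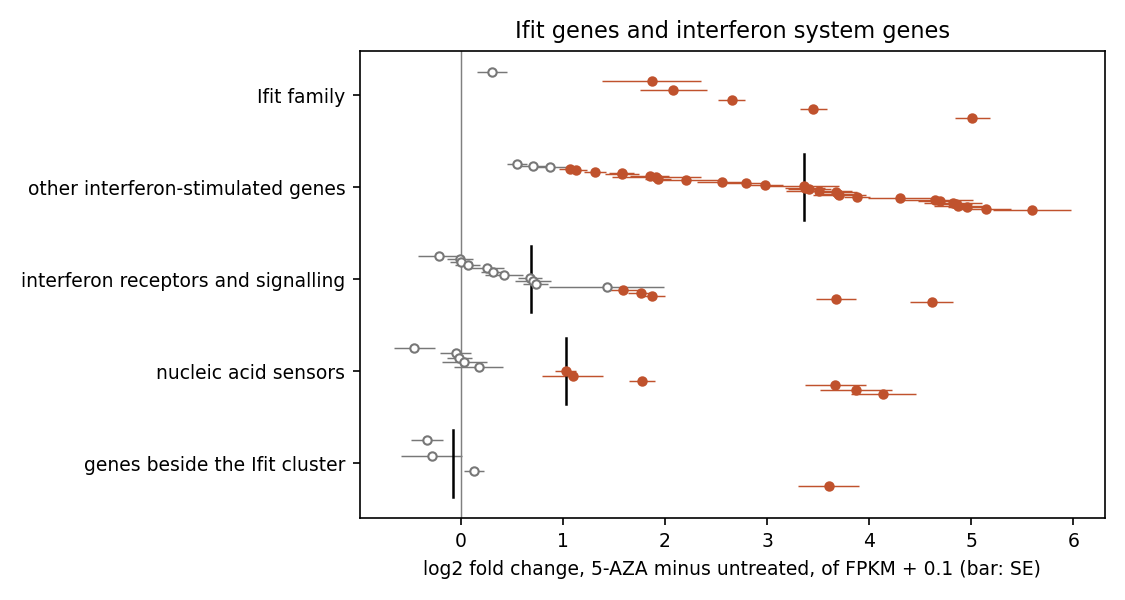
Log2 fold change (5-AZA minus untreated, FPKM + 0.1) of each tested gene, by group of genes, with its standard error as a bar. Filled red points were called higher and open grey points were not called, and black lines mark the median of each list other than the Ifit family. Ifit1 lies at 5.01 and Ifit2 at 0.31, and the other interferon-stimulated genes have a median of 3.37.

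Levels of several cell type markers changed in the same samples. Over all genes tested 13.1% were called higher. Summed FPKM of 5 skeletal muscle markers was 0.824 to 1.06 in the untreated and 676 to 1046 in the 5-AZA samples, and that of 5 adipocyte markers 14.2 to 31.5 against 1072 to 1468, with all 10 genes called higher, 4 of which (Myog, Ckm, Tnni2 and Cidec) entered the test only through their 5-AZA samples. Of 10 immune markers 4 were listed at 0 in all samples, Adgre1, Cd3e and Tyrobp among them, and Ptprc was at 0.0631 FPKM in 5-AZA replicate 101 and at 0 elsewhere. Cd68 was the immune marker called higher, and the summed immune markers were 2.13 to 3.22 FPKM against 3.40 to 5.45 FPKM. The 4 endothelial markers summed to 0.296 to 0.536 FPKM against 1.79 FPKM in each 5-AZA sample. Of 3 tested, Tek (log2 fold change 1.59) and Cdh5 (2.05) were called higher, the latter entering the test only through its 5-AZA samples, and Kdr was at 0 throughout. Of 6 mesenchymal markers Col1a1, Col1a2 and Cd44 were well expressed in all samples, with Col1a1 and Col1a2 lower after 5-AZA but under 2-fold (log2 fold changes -0.52 and -0.37). Thy1 was called higher, with 0.578 and 0.785 FPKM untreated and 10.4 and 14.2 FPKM after 5-AZA (log2 fold change 3.98), and Nt5e went from a listed 0 to 0.154 and 0.0824 FPKM without being tested. The part of these cell types in the levels of the Ifit genes was not tested.

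The genes whose pattern was most like that of Ifit3, the member with the highest mean, were sought by the root mean square difference of mean-centred log2(FPKM + 0.1) over the 4 samples. Among 13198 other genes the closest were Efemp1 (0.0768), Slfn8 (0.0888), Magea8 (0.0962), Rhox2c (0.0981) and Icam2 (0.104). Slfn8, Magea8, Rhox2c and Icam2 were at 0.0209 FPKM or below in both untreated samples and entered the test only through their 5-AZA samples. At such levels the fold change depends on the 0.1 FPKM added, so their likeness to Ifit3 depends on it too. Slfn8 was at 1.12 and 1.02 FPKM after 5-AZA. Ifit3b came at rank 257 (0.403), Ifit1bl1 at 690, Ifit1 at 818 (0.789), Ifit1bl2 at 1001 and Ifit2 at 3612 (1.57). With 4 samples in 2 groups this measure mostly reflects the size of the fold change.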

How the data were processed

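RNA of 2 untreated and 2 5-AZA samples of C3H10T1/2 cells was analysed. The authors deposited FPKM values per mRNA and lncRNA transcript and RPM values per circRNA, made from stranded libraries without ribosomal RNA. The submitters' processing notes name Trimmomatic, HISAT2, Bowtie2 2.2.9, eXpress 1.5.1 and mm9, with no roles, and the circRNA predictor is not given in the sources used here. All 2388 listed host transcripts overlapped the GRCm38.p6 gene of their symbol, so coordinates are given in that build. Read counts cannot be had from FPKM, and the depth behind each level is unknown. The RPM of 1 read corresponds to 92903364 to 93920706 reads per sample, and 100% of RPM values were whole multiples of it within 0.01 reads.

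Transcripts were summed per gene, and log2(FPKM + 0.1) was fitted with limma 3.58.1 (eBayes with trend) in R 4.3.3, with both groups in every fit and Benjamini-Hochberg adjustment over all features of a table. lncRNAs and single transcripts were fitted likewise. circRNAs detected in at least 2 samples were fitted on log2(RPM + 0.0213). Windows were aligned with Biopython 1.88. The fit was tested on simulated data. The members and lists were chosen with earlier results of these data known. Named are all members, their transcripts and circRNAs, the 5 genes most like the highest member and, of each list, the leading and called genes. Some genes of the lists are counted but not reported here by name. Mx1, Mx2 and Mymk were not found by symbol and were not analysed here. The pseudocount, the limit on low values and the scaling were varied, and each sample was left out in turn. No sample column was left unused.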

Additional observations from a re-analysis of the deposited data

How the results depend on the processing

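Ifit1, Ifit3 and Ifit3b kept their direction and their call under every alternative tried by gene. Their log2 fold changes were 4.48 to 5.25, 3.31 to 3.60 and 2.42 to 2.74, and 3.23 for Ifit3 summed with Ifit3b. Ifit2 was called under none (0.18 to 0.43). The count of members called higher fell from 5 to 3 with a pseudocount of 1 FPKM and after quantile normalization. Of 13199 genes 875 and 1041 were then called higher, against 1724 in the main fit. The count was also 3 with a mean of at least 1 FPKM, where Ifit1bl1 and Ifit1bl2 were not tested and 845 of 10800 genes were called higher. With any replicate left out, fewer genes were called higher over all genes tested. With a pseudocount of 1 FPKM the log2 fold changes of Ifit1bl1 and Ifit1bl2 were 0.80 and 0.51, with one of 0.01 FPKM 2.56 and 3.02 (both called), and after quantile normalization 0.97 and 0.55. Ifit1bl2 (1.87) was not called without the limit on low values or with eBayes without trend. Leaving out 1 replicate gave 1.88 to 2.29 for Ifit1bl1 and 1.37 to 2.37 for Ifit1bl2. Transcripts called fell from 5 to 0 without the limit on low values, and fewer were called with 1 replicate left out. The share called over all transcripts in any of those fits is not given here. Leaving out 1 replicate gave 3 to 6 nucleic acid sensors, 18 to 29 other interferon-stimulated genes and 0 to 1 genes beside the cluster. With a pseudocount of 1 FPKM and with quantile normalization the medians were 0.54 and 0.18 for the sensors and 1.84 and 2.77 for the other interferon-stimulated genes. The cause of these changes was not tested. circRNA_2222 was called under none (1.77 to 4.44) and has no value with detection in all 4 samples. The median of the genes beside the cluster was 0.16 without untreated replicate 1, and -0.17 to 0.16 over all omissions of 1 replicate. With quantile normalization the median log2 fold change of all genes went from 0.05 to -0.12, and with centring to -0.06. With 1 replicate left out, the lone sample of a group is assumed to vary like the others. A count test on circRNA reads was planned and not run, since the deposited RPM hold no value below that of 2 reads. No paired analysis was possible because the groups share no replicate number. With 2 samples a group, features not called have not been shown to be unchanged.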
